A study of Mus musculus with 18 samples.

Results

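The sodium pump (Na,K-ATPase) sits in the basolateral membrane of thick ascending limb cells and carries sodium out of the cell in exchange for potassium. Its catalytic alpha subunit works only together with a beta subunit, a glycoprotein that brings the complex to the membrane and influences its affinity for potassium, and in many tissues a small FXYD protein binds the pump and tunes its affinities for sodium and potassium. The thick ascending limb is among the kidney segments richest in this pump, because the gradient it makes drives salt uptake from the tubular fluid. The genes described here encode the beta subunits *Atp1b1*, *Atp1b2* and *Atp1b3* and the regulators *Fxyd1*, *Fxyd2* and *Fxyd5*. They are 6 of the 55401 genes in the tables and were chosen by name. The question was whether the set of subunits differs between segments or after deletion of *Cldn10*, the gene of a claudin that forms a cation pore between thick ascending limb cells.

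RNA-seq was done on 18 pools of microdissected thick ascending limbs. Each pool came from a different adult male mouse, mainly of C57BL/6 background. The cKO mice were *Cldn10* fl/fl and carried Ksp-Cre, in which the Ksp-cadherin promoter drives Cre in the distal nephron, and the WT mice were littermates with the same floxed alleles and no Cre. The groups were WT CTAL (cortical limb, 5 pools), cKO CTAL (5 pools), WT MTAL (medullary limb, inner stripe, 5 pools) and cKO MTAL (3 pools). The study reports that calcium deposits (nephrocalcinosis) in the outer medulla of cKO kidneys made dissection of cKO MTAL difficult. Other cKO MTAL pools were excluded by the study at quality control. The labels of WT CTAL replicate 1 disagree, its pool name giving WT and its genotype giving knockout. It was used as WT, and values with it as cKO are given where a call depends on it.

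*Cldn10* lay between 384 and 579 CPM (counts scaled to a common, TMM-normalized library size) in WT CTAL, with WT CTAL replicate 1 at 446 CPM, and between 156 and 185 CPM in cKO CTAL. It lay between 653 and 810 CPM in WT MTAL and between 151 and 295 CPM in cKO MTAL. The study kept only cKO pools with *Cldn10* below WT and excluded a cKO CTAL pool whose level was like WT. The separation of the genotypes was thus partly set by that selection. Total counts ranged from 10824328 to 62339991 per pool (median 21399600). The summed level of 5 thick ascending limb marker genes was between 50090 and 97717 CPM in every pool, with none of the 5 at 0. In 7 pools *Xist*, the transcript of the inactive X chromosome, reached 3 CPM or more, while the Y-linked *Ddx3y* was at 23.6 CPM or higher in all pools and the mice are described as males. These were 2 pools of WT CTAL, 1 of cKO CTAL, 4 of WT MTAL and none of cKO MTAL.

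The beta subunits are relatives with distinct coding sequences, and their first 60 coding bases are shown because reads are assigned to one or the other by such differences. They are in lower case with the start codon in capitals (GRCm38, the build also called mm10, GENCODE transcripts, all on the minus strand, at chr1:164457798-164457857, chr11:69605313-69605372 and chr9:96364095-96364154).
Atp1b1: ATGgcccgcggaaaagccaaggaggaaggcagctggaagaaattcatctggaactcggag
Atp1b2: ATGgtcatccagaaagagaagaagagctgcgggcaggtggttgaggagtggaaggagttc
Atp1b3: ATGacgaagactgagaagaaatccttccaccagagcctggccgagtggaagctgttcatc

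Over aligned positions without gaps, the coding sequence of *Atp1b1* (912 bases) was 62% identical to that of *Atp1b2* (870 bases) and 59.2% identical to that of *Atp1b3* (834 bases), and *Atp1b2* and *Atp1b3* were 60% identical. The longest stretch shared without a mismatch was 19 bases, between *Atp1b1* and *Atp1b2*, and for the other pairs it was 11 and 12 bases. The estimated counts of *Atp1b3* had decimals in 17 of 18 pools, whereas those of the other 5 genes were whole numbers in every pool. Whether *Atp1b3* shares reads with other genes was not tested. The *Atp1b1* gene (chr1:164437109-164458355) overlaps *Nme7* on the opposite strand in the annotation. *Fxyd5* (chr7:31032722-31042481) holds a microRNA gene on its own strand. *Atp1b2* (chr11:69599736-69605942), *Atp1b3* (chr9:96332655-96364442), *Fxyd2* (chr9:45399669-45410278, plus strand) and *Fxyd1* (chr7:31051678-31057199) overlap no other annotated gene.

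The regulators are named for a short stretch of amino acids, phenylalanine, any residue, tyrosine and aspartate, found in all of them. The codons of that stretch are in capitals in the coding sequences below, each with 15 bases before and 18 after it. In these transcripts each coding sequence held 1 such match in frame. In the genome the stretches lie at chr9:45408120-45408319 (plus strand), chr7:31053455-31053917 and chr7:31035264-31035410 (both minus strand), each interrupted by an intron.
Fxyd2: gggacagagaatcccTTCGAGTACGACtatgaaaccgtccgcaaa
Fxyd1: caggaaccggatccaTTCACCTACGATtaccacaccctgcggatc
Fxyd5: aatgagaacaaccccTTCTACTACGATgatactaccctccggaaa

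The stretch begins at coding base 49 of 192 in *Fxyd2*, at base 85 of 276 in *Fxyd1* and at base 403 of 534 in *Fxyd5*, so that *Fxyd5* has by far the longest sequence before it.

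*Atp1b1*, the beta subunit usual in kidney tubules, was the most abundant of the 6 genes counted as CPM. It averaged 6164 ± 247 CPM (SD, n = 5) in WT CTAL, 6234 ± 424 CPM (n = 5) in cKO CTAL, 6319 ± 90.7 CPM (n = 5) in WT MTAL and 6506 ± 242 CPM (n = 3) in cKO MTAL. All groups overlapped with one another. On the deposited TPM scale (scaled to one total per pool and corrected for transcript length), which allows levels of different genes to be compared, *Atp1b1* made up 97.6% of the summed beta transcripts in WT CTAL, 97.6% in cKO CTAL, 97.1% in WT MTAL and 97.4% in cKO MTAL. *Atp1b3*, the next beta subunit, held 2.26%, 2.14%, 2.74% and 2.39% in the same order. *Atp1b2*, known best from the nervous system, held 0.132% ± 0.0139 (SD, n = 5) in WT CTAL, 0.3% ± 0.028 (n = 5) in cKO CTAL, 0.148% ± 0.0392 (n = 5) in WT MTAL and 0.208% ± 0.135 (n = 3) in cKO MTAL. The largest of these shares of *Atp1b2* was thus a small part of the total, and the sum of the 3 beta transcripts was set by *Atp1b1* in each group.

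**Figure D1:**
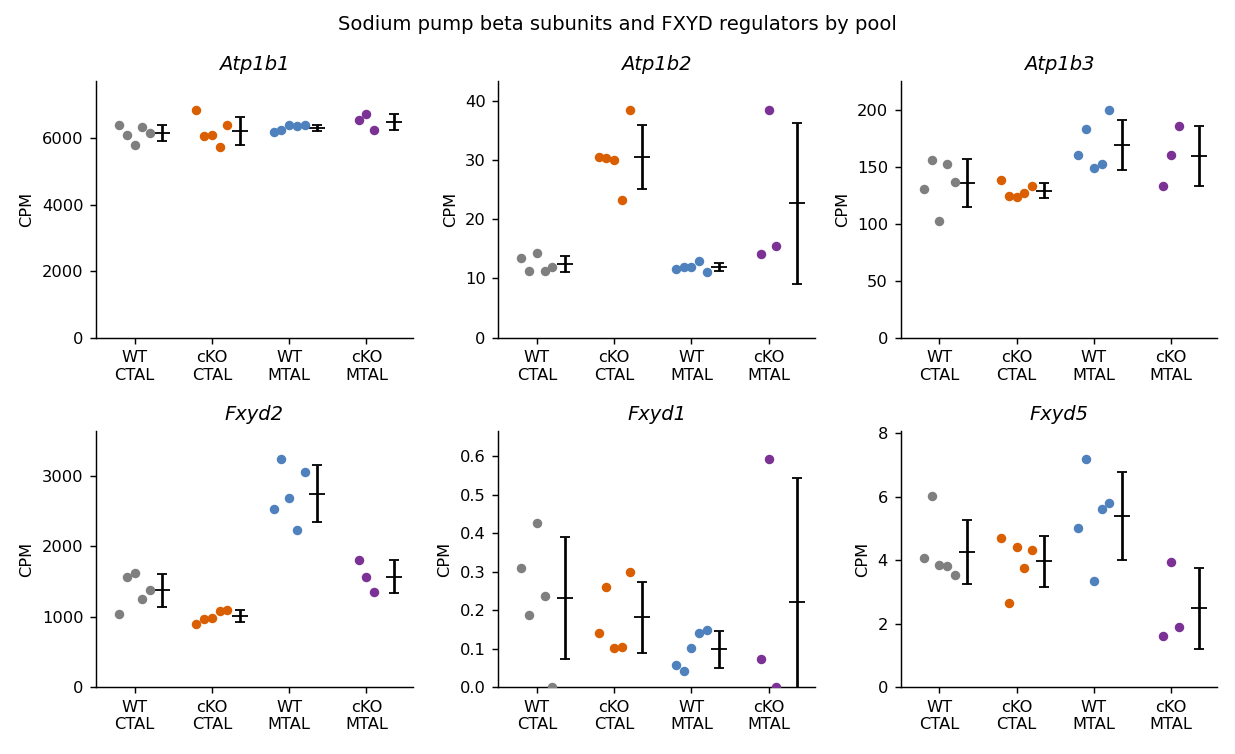
Levels of the 6 genes in CPM (vertical axes, linear and starting at 0) in the 4 groups, with 1 point per pool and the mean ± SD beside the points. *Atp1b2* is above 23 CPM in all 5 cKO CTAL pools and in 1 of 3 cKO MTAL pools, and *Fxyd2* is highest in WT MTAL.

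The clearest difference between genotypes was in *Atp1b2* of the cortical limb. In WT CTAL it stood at 13.5, 11.2, 14.3, 11.2 and 11.8 CPM in replicates 1, 3, 8, 10 and 22. In cKO CTAL it stood at 30.6, 30.3, 30.0, 23.2 and 38.5 CPM in replicates 2, 4, 7, 9 and 21. Every cKO CTAL pool was above every WT CTAL pool. The means were 12.4 ± 1.40 CPM (SD, n = 5) and 30.5 ± 5.43 CPM (n = 5). In the edgeR quasi-likelihood test, with p adjusted over all genes by the Benjamini-Hochberg method, the log2 fold change was 1.28 (SE 0.136), or 2.43-fold, with an adjusted p of 0.000406. An exact two-sided Mann-Whitney test of the pool levels gave p = 0.00794, the smallest value that 5 against 5 pools allow. On CPM 24 such tests were run for the genes described here. More were run on TPM and for the genes of the lists. All exact p-values are given unadjusted. With 119 to 1531 reads per pool, *Atp1b2* is a low transcript whose counting error is smaller than this difference.

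Of the 5 genes that could be tested in cKO CTAL against WT CTAL, 1 was called higher at an adjusted p under 0.05, beside 1.22% of all 11702 genes called and 0.658% called higher. Groups that did not overlap, with cKO CTAL the higher, were found for 1.85% of genes. *Atp1b2* was also past a log2 fold change of 1, as were 0.47% of all genes in either direction. The call held with each of the 10 pools left out in turn, with log2 fold changes from 1.18 to 1.36, and with WT CTAL replicate 1 counted as cKO (1.17, adjusted p = 0.0214 by edgeR). With the 3 CTAL pools with *Xist* left out it was 1.21 (adjusted p = 0.0126 by edgeR, a check added after the data were seen). The 5 markers of tubular injury (*Havcr1*, *Lcn2*, *Krt20*, *Vcam1* and *Spp1*) summed to 1683 to 4438 CPM in cKO CTAL and to 1367 to 1623 CPM in WT CTAL, and 0 of the 3 that could be tested were called by edgeR's quasi-likelihood test, by DESeq2 or by limma (*Lcn2* had an adjusted p of 0.122 and *Spp1* of 0.101). At an unadjusted p under 0.05 there were 2, the number that edgeR's likelihood ratio test called. Most of each sum was *Spp1*, at 1670.5 to 4347 CPM in cKO CTAL and 1355 to 1614 CPM in WT CTAL. Thin limb and endothelial markers, given below with *Fxyd2* in CTAL, were also lower on average in cKO CTAL. The part of any of these markers in the *Atp1b2* difference was not tested.

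In the medullary limb *Atp1b2* stood at 11.6, 11.9, 11.96, 12.9 and 11.2 CPM in WT MTAL replicates 11, 13, 15, 17 and 19. In cKO MTAL it stood at 14.2 CPM in replicate 16, at 38.4 CPM in replicate 18 and at 15.5 CPM in replicate 20. All 3 cKO pools were above the WT pools in CPM, as for 6.79% of all genes tested, but 2 of them by little. The log2 fold change was 0.94 (SE 0.290), with a 95% interval from 0.371 to 1.51 and an adjusted p of 0.0622 by edgeR, so that the gene was not called. It was called under 6 of the 10 alternatives that keep all pools, with adjusted p from 0.00912 in one fit of all groups to 0.33 with limma on TPM (0.027 by edgeR's likelihood ratio test and 0.023 by that of DESeq2). Without cKO MTAL replicate 18 the log2 fold change was 0.33 (adjusted p = 0.489 by edgeR), without replicate 16 it was 1.19 (adjusted p = 0.0272 by edgeR) and without replicate 20 it was 1.16 (adjusted p = 0.0431 by edgeR). The exact Mann-Whitney test gave p = 0.0357 on CPM, the smallest possible with 3 against 5 pools, and p = 0.25 on TPM, where the groups overlapped.

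The medullary value of *Atp1b2* therefore rested on 1 pool. The same pool, cKO MTAL replicate 18, had the highest sum of the 5 injury genes, 8129 CPM. The other cKO MTAL pools had 2010 and 2082 CPM, and WT MTAL had 1031 to 1259 CPM. Most of each sum was *Spp1*, at 1959 to 7835 CPM in cKO MTAL and 1015.5 to 1241 CPM in WT MTAL. *Vcam1* was lower on average in cKO MTAL and not called. Replicate 18 also had the lowest *Cldn10* of the cKO MTAL pools, 151 CPM against 295 and 217 CPM. Of the 3 injury genes that could be tested, *Lcn2* (log2 fold change 3.44, adjusted p = 0.00135 by edgeR) and *Spp1* (1.85, adjusted p = 0.00257) were called higher in cKO MTAL. None of the 5 was at 0 in all pools. The part of the injury genes and of *Cldn10* in the *Atp1b2* level was not tested.

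Whether deletion of *Cldn10* acted differently on the 2 segments was asked with an interaction term in 1 fit of all 18 pools. For *Atp1b2* the term was -0.35 (SE 0.314, 95% interval from -0.97 to 0.261, adjusted p = 0.646 by edgeR), MTAL minus CTAL, and without cKO MTAL replicate 18 it was -0.96 (adjusted p = 0.0184). None of the 5 genes that could be tested was called, beside 0.286% of 12586 genes. At an unadjusted p under 0.05, 1 of the 5 passed (*Fxyd5*), and edgeR's likelihood ratio test, DESeq2 and limma called none of the 5. Between the WT segments *Atp1b2* differed by -0.0647 on the log2 scale (95% interval from -0.367 to 0.238, adjusted p = 0.872). Between cKO MTAL and cKO CTAL the difference was -0.39 (adjusted p = 0.522), and -0.99 without cKO MTAL replicate 18 (adjusted p = 0.0153).

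**Figure D2:**
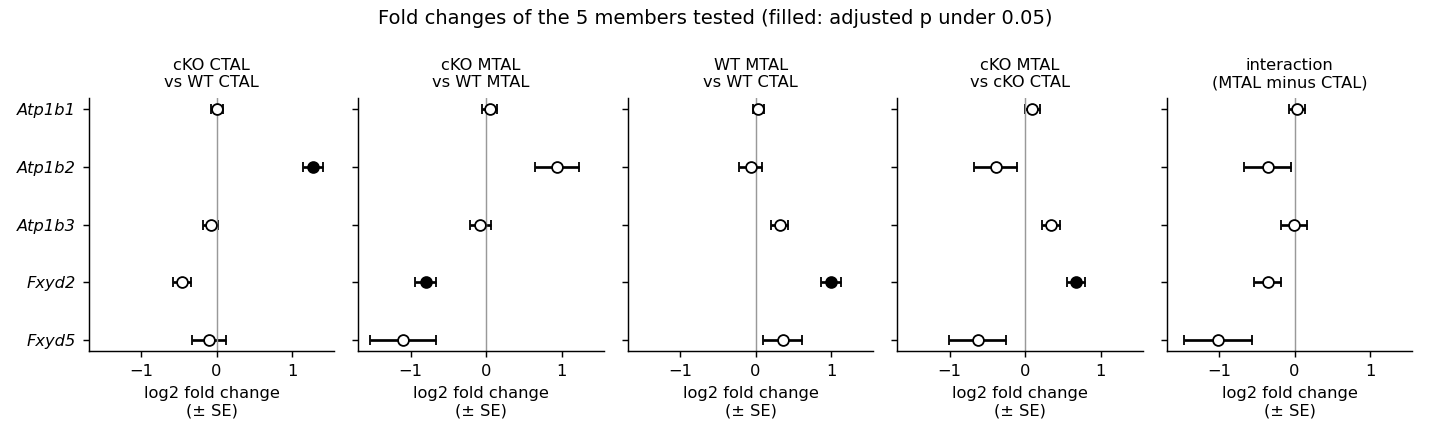
Log2 fold changes (horizontal axis) with their SE for the 5 genes that could be tested in each of the 5 comparisons, filled where the adjusted p was under 0.05. Called were *Atp1b2* in cKO CTAL against WT CTAL (1.28) and *Fxyd2* in the other 3 pairs of groups, and no gene was called in the interaction.

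*Atp1b1* was not called in any comparison, and its intervals in the edgeR fits of counts were narrow. The log2 difference of cKO from WT was 0.00527 (95% interval from -0.154 to 0.165) in CTAL and 0.0494 (-0.141 to 0.239) in MTAL. Between segments it was 0.0355 (-0.103 to 0.174) in WT and 0.0978 (-0.0988 to 0.295) in cKO. Under the alternatives that keep all pools, the difference of cKO from WT in MTAL ran from -0.0131 to 0.331 and was not called. The highest of these values lies above the interval given for MTAL. On the TPM scale *Atp1b1* averaged 4294 ± 388 in WT CTAL, 4727 ± 354 in cKO CTAL, 4111 ± 407 in WT MTAL and 5172 ± 589 in cKO MTAL (SD, n = 5, 5, 5 and 3), and the exact p of cKO against WT was 0.0952 in CTAL and 0.0714 in MTAL.

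*Atp1b3* lay between 103 and 156 CPM in WT CTAL, between 123 and 138 CPM in cKO CTAL, between 149 and 200 CPM in WT MTAL and between 133 and 185 CPM in cKO MTAL. The mean was 1.25-fold higher in WT MTAL than in WT CTAL (log2 fold change 0.32, SE 0.114, adjusted p = 0.119 by edgeR), and the values of cKO MTAL against cKO CTAL were 0.34 (SE 0.114, adjusted p = 0.139). Neither passed the test, and the groups overlapped. For genotype the log2 difference was -0.0798 in CTAL (95% interval from -0.277 to 0.118) and -0.0754 in MTAL (-0.341 to 0.191), with a sign that turned on the TPM scale.

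*Fxyd2*, the gamma subunit of the pump and the main renal FXYD protein, made up over 99% of the summed TPM of the 3 FXYD genes in each group (99.6% in cKO CTAL to 99.9% in cKO MTAL). Of the 5 genes tested it was the one called between the WT segments. In WT CTAL it stood at 1039, 1572, 1618, 1258 and 1387 CPM in replicates 1, 3, 8, 10 and 22. In WT MTAL it stood at 2535, 3237, 2689, 2231 and 3063 CPM in replicates 11, 13, 15, 17 and 19. The lowest medullary pool was thus above the highest cortical pool, as for 3.06% of genes. The log2 fold change was 0.999 (SE 0.127), or 2-fold, with an adjusted p of 8.51e-05 by edgeR and an exact p of 0.00794. The 1 call among the 5 genes stands beside 6.87% of 11650 genes called and 2.76% called higher. The call held with each pool left out (0.91 to 1.06), and was 1.02 in a fit with a term for the pools with *Xist* (adjusted p = 1.28e-05). Marker lists differed between the WT segments as well. The 4 thin limb markers summed to 140 to 249 CPM in WT MTAL and to 83.5 to 190 CPM in WT CTAL. Of the 3 that could be tested 1 was called higher. The 5 thick ascending limb markers summed to 50090 to 61388 CPM and 83217 to 94874 CPM, with 2 of the 5 called lower. Those 2 were *Umod* and *Egf*. *Slc12a1* averaged 15384 CPM in WT MTAL and 14321 CPM in WT CTAL and was not called, and *Kcnj1* and *Bsnd* were lower on average and not called. In the lists of principal cell and injury markers 1 gene each was called lower, and in that of immune cells 1 higher and 1 lower. Their part in the *Fxyd2* difference was not tested.

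In the knockout, *Fxyd2* was lower in the medullary limb. The cKO MTAL pools stood at 1807, 1565 and 1349 CPM in replicates 16, 18 and 20, each below the lowest WT MTAL pool, as for 7.65% of genes. The means were 1574 ± 230 CPM (SD, n = 3) and 2751 ± 405 CPM (n = 5). *Fxyd2* fell by 0.80 on the log2 scale (SE 0.140), to 0.575 of the WT level, with an adjusted p of 0.00292 by edgeR and an exact p of 0.0357. Of the 5 genes tested, 1 was called, beside 7.01% of 12060 genes called in either direction and 2.57% called lower. With each pool left out the difference was between -0.91 and -0.69 and stayed called. On log2(TPM + 1) with limma it was -0.71 with an adjusted p of 0.0534, just outside the threshold.

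Several marker lists moved with the medullary comparison. The 5 endothelial markers summed to 117 to 219 CPM in cKO MTAL and 220 to 330 CPM in WT MTAL, with 3 of the 5 called lower. The 6 principal cell markers summed to 861 CPM in cKO MTAL replicate 20, against 74.1 and 79.2 CPM in the other cKO MTAL pools and 43.3 to 256 CPM in WT MTAL, with 0 of the 5 that could be tested called by the quasi-likelihood test, DESeq2 or limma, 4 at an unadjusted p under 0.05 and 3 by edgeR's likelihood ratio test. The 4 thin limb markers summed to 127 to 160 CPM in cKO MTAL and to 140 to 249 CPM in WT MTAL, with 1 of the 4 called lower. Other lists were higher in cKO MTAL. The 6 markers of fibroblasts, pericytes and smooth muscle summed to 58.3 to 68.7 CPM there and to 36.4 to 40.5 CPM in WT MTAL, with 1 of the 5 that could be tested called higher. The 5 proximal tubule markers summed to 16.8 to 68.5 CPM and 13.1 to 26.3 CPM, with 1 of the 2 tested called higher. The 5 thick ascending limb markers themselves summed to 67112 to 79194 CPM in cKO MTAL and to 50090 to 61388 CPM in WT MTAL, with 1 of the 5 called higher. That gene was *Umod*, with means of 44955 CPM in cKO MTAL and 28433 CPM in WT MTAL. *Slc12a1* went the other way, with means of 13490 and 15384 CPM, and was not called. *Egf*, *Kcnj1* and *Bsnd* were higher on average in cKO MTAL and not called. The part of these lists in the *Fxyd2* difference was not tested. No list had a gene at 0 in all pools except the distal convoluted tubule list in cKO MTAL, with 1 of 3. Without cKO MTAL replicate 20 the *Fxyd2* difference was -0.69 (adjusted p = 0.0234 by edgeR). With a term for the pools with *Xist*, which 4 of 5 WT MTAL pools and no cKO MTAL pool carried, it was -0.86 (adjusted p = 0.00278). In pools of tubules, fewer cells of a type and less RNA per cell cannot be told apart.

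In the cortical limb *Fxyd2* stood at 897, 972, 989, 1091 and 1098 CPM in cKO CTAL replicates 2, 4, 7, 9 and 21. These values overlapped with WT CTAL through WT CTAL replicate 1, at 1039 CPM, the pool with conflicting labels. The log2 fold change was -0.46 (SE 0.115, 95% interval from -0.683 to -0.233), with an adjusted p of 0.0735 by edgeR, so that the gene was not called. Without WT CTAL replicate 1 it was -0.55 (adjusted p = 0.0129 by edgeR), and with that pool counted as cKO -0.54 (adjusted p = 0.0159). DESeq2's likelihood ratio test on all pools gave an adjusted p of 0.00364. With the 3 pools with *Xist* left out the value was -0.34 (adjusted p = 0.492 by edgeR). The genotype effect on *Fxyd2* differed between segments by -0.36 (SE 0.184, adjusted p = 0.374), which did not pass the test. The 4 thin limb markers summed to 50.6 to 80.1 CPM in cKO CTAL and to 83.5 to 190 CPM in WT CTAL. The 5 endothelial markers summed to 149 to 223 CPM and 178 to 413 CPM. The quasi-likelihood test called 0 in either list. At an unadjusted p under 0.05 there were 3 of 3 tested and 4 of 5. DESeq2's likelihood ratio test called 0 and 2. Their part in the *Fxyd2* difference was not tested.

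Between the knockout segments *Fxyd2* was higher in cKO MTAL than in cKO CTAL. The difference was 0.68 on the log2 scale (SE 0.114), or 1.6-fold, with an adjusted p of 0.0105 by edgeR, and the groups did not overlap, as for 4.15% of genes. Of the 5 genes tested 1 was called, beside 1.75% of 12044 genes called and 1.12% called higher. The call was lost without cKO MTAL replicate 16 (0.55, adjusted p = 0.0673 by edgeR), without cKO CTAL replicate 7, and with limma on log2(TPM + 1) (0.67, adjusted p = 0.0921). The 4 thin limb markers summed to 127 to 160 CPM in cKO MTAL and to 50.6 to 80.1 CPM in cKO CTAL, with 3 of the 4 called higher. Of the 5 thick ascending limb markers 1 was called lower, and no gene of the other marker lists was called by edgeR's quasi-likelihood test. The part of the thin limb markers in the *Fxyd2* difference was not tested. Ordered by mean CPM, *Fxyd2* ran from WT MTAL (2751) through cKO MTAL (1574) and WT CTAL (1375) to cKO CTAL (1009). The pools of cKO MTAL and WT CTAL overlapped, as did those of WT CTAL and cKO CTAL.

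**Figure D3:**
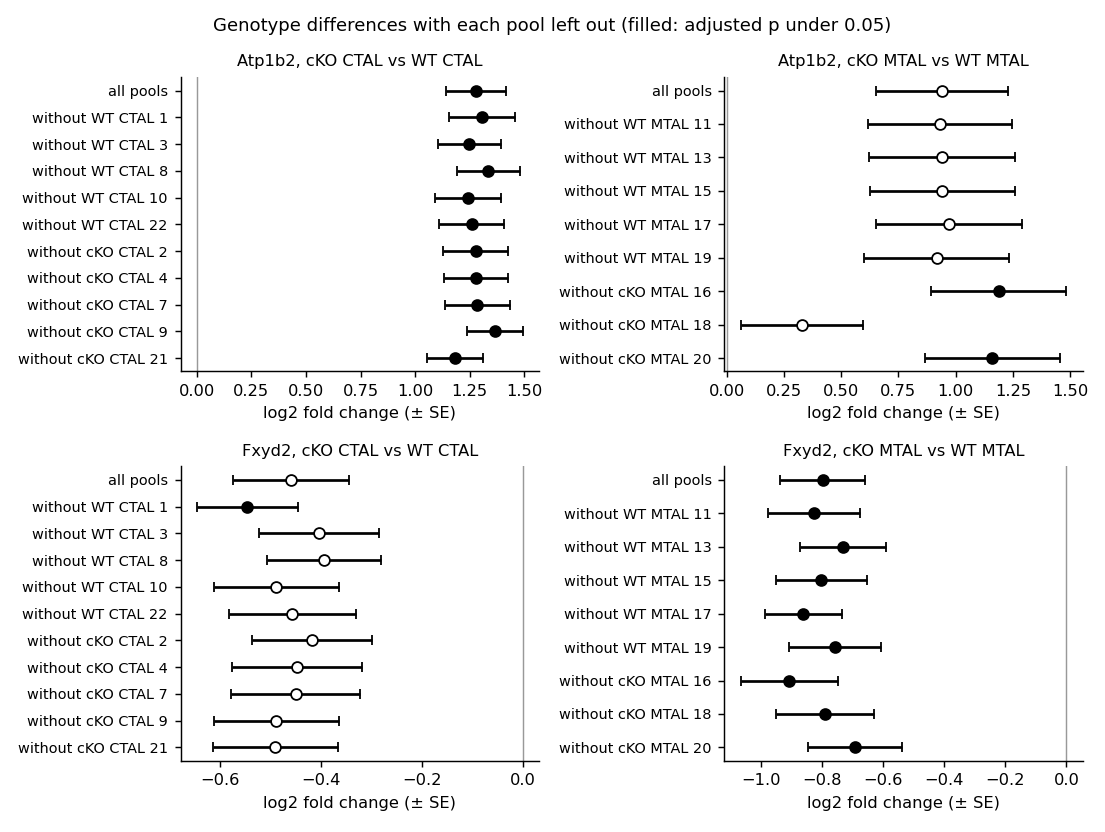
Genotype differences of *Atp1b2* and *Fxyd2* on the log2 scale (horizontal axes) with SE, with all pools and with each pool left out, filled where the adjusted p was under 0.05. Leaving out cKO MTAL replicate 18 moves *Atp1b2* from 0.94 to 0.33 in MTAL, while *Fxyd2* in MTAL is called in every row.

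The balance of the subunits was described on the TPM scale, with no test. For every 1000 *Atp1b1* transcripts there were on average 1.35 ± 0.139 *Atp1b2* transcripts (SD, n = 5) in WT CTAL and 3.07 ± 0.285 (n = 5) in cKO CTAL, with ranges of 1.21 to 1.505 and 2.62 to 3.34. In WT MTAL the mean was 1.52 ± 0.408 (n = 5), and in cKO MTAL the pools had 1.36, 3.75 and 1.30 in replicates 16, 18 and 20. In cKO MTAL 2 pools were thus within the WT MTAL range of 1.18 to 2.07 and 1 was above it. The ratio of *Fxyd2* to *Atp1b1* was 0.685 ± 0.141 (n = 5) in WT CTAL, 0.479 ± 0.0474 (n = 5) in cKO CTAL, 1.44 ± 0.170 (n = 5) in WT MTAL and 0.711 ± 0.174 (n = 3) in cKO MTAL. *Fxyd2* transcripts thus outnumbered *Atp1b1* transcripts in every WT MTAL pool (1.19 to 1.60) and in no pool of the other groups, where the highest ratio was 0.838.

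**Figure D4:**
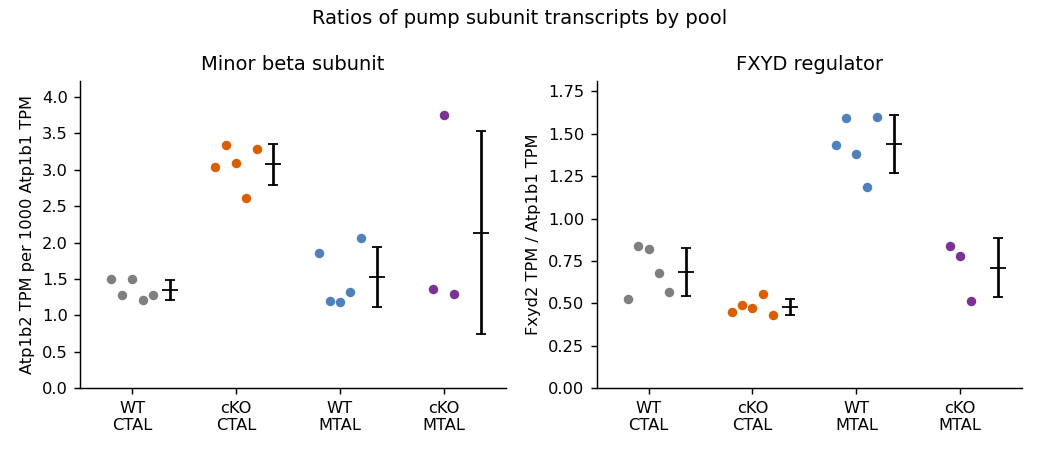
Ratios of TPM in each pool (points) with mean ± SD, on linear axes starting at 0. The left panel shows *Atp1b2* per 1000 *Atp1b1*, with cKO CTAL at 2.62 to 3.34, and the right panel shows *Fxyd2* to *Atp1b1*, with WT MTAL at 1.19 to 1.60.

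The other regulators were low. *Fxyd5*, or dysadherin, which binds the pump and is known for an effect on cell adhesion, averaged 4.26 ± 1.01 CPM (SD, n = 5) in WT CTAL, 3.97 ± 0.810 CPM (n = 5) in cKO CTAL and 5.40 ± 1.39 CPM (n = 5) in WT MTAL. In cKO MTAL it stood at 1.62, 3.95 and 1.89 CPM in replicates 16, 18 and 20. Only 1 of these 3 pools reached the minimum of 3 CPM, so that *Fxyd5* entered the medullary test through the WT MTAL pools. Its log2 fold change of cKO from WT was -1.10 in MTAL (SE 0.440, 95% interval from -1.97 to -0.241, adjusted p = 0.14 by edgeR) and -0.0961 in CTAL (SE 0.223, adjusted p = 0.917), and the interaction was -1.02 (SE 0.453, adjusted p = 0.3). None was called in these fits, and in one fit of all groups the medullary difference was -1.11 with an adjusted p of 0.0348 by edgeR. The medullary groups overlapped in CPM (exact p = 0.0714) and not in TPM (exact p = 0.0357). *Fxyd5* had 22 to 341 reads per pool.

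*Fxyd1*, or phospholemman, the regulator of the pump in heart and muscle, was under the minimum in all 18 pools and was not tested. It had 0 to 26 reads per pool and at most 0.592 CPM, in cKO MTAL replicate 18. It had no reads in WT CTAL replicate 22, where 3 counts would be 0.1 CPM, or in cKO MTAL replicate 20, where 3 counts would be 0.178 CPM. These limits cover counting error only.

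Genes that act beside the pump were counted in 3 lists. The first held 7 genes of the related H,K-ATPases and of pump-interacting proteins, of which only *Atp4a*, the catalytic subunit of the gastric H,K-ATPase, was high enough to test. *Atp4a* rose in both knockout comparisons, from 38.0 to 111 CPM on average in MTAL (log2 fold change 1.56, SE 0.242, adjusted p = 0.00111 by edgeR) and from 95.9 to 177 CPM in CTAL (0.87, SE 0.190, adjusted p = 0.0369). It was lower in WT MTAL than in WT CTAL (-1.34, adjusted p = 0.000191).

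The second list held 12 genes of control and membrane anchoring of the pump, all tested. In cKO MTAL against WT MTAL 1 was called, the glucocorticoid receptor *Nr3c1* (-0.50, adjusted p = 0.0415 by edgeR), lower, a share near the 7.01% of all genes called there. For the same groups edgeR's likelihood ratio test and both DESeq2 tests each called 2 of the list, and limma on TPM called 0. In cKO CTAL against WT CTAL, where 1.22% of all genes were called, 0 were called by edgeR, DESeq2 or limma, with 3 at an unadjusted p under 0.05. *Nr3c1* was named, beyond the 5 largest changes of that comparison, after its value was seen. Between the WT segments, where 6.87% of all genes were called, 2 were called, both higher in MTAL. They were *Nfat5*, a transcription factor that responds to tonicity (0.51, adjusted p = 0.0288), and *Sptan1*, a spectrin chain (0.44, adjusted p = 0.00202). In this comparison edgeR's likelihood ratio test and both DESeq2 tests each called 2 of the list, and limma on TPM called 0. The list's median log2 fold change was -0.106 in cKO MTAL and -0.0387 in cKO CTAL, where the medians over all genes tested were 0.00118 and 0.00255.

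The third list held 16 ion transporters and channels of the thick limb, all tested. In cKO MTAL against WT MTAL, beside the 7.01% of all genes, 2 were called higher, among them the potassium channel subunit *Kcnj16* (log2 fold change 0.56, adjusted p = 0.0139 by edgeR), and 2 lower, among them *Slc4a7*, a sodium bicarbonate cotransporter (-0.81, adjusted p = 0.0432). In cKO CTAL, beside 1.22% of all genes, 0 of the 16 were called by the quasi-likelihood test or by limma. At an unadjusted p under 0.05 there were 4 in cKO CTAL, and edgeR's likelihood ratio test and both DESeq2 tests each called 1. Between the WT segments, beside 6.87% of all genes, 2 were called higher in MTAL and 5 lower, with the sodium proton exchanger *Slc9a2* at -1.32 (adjusted p = 1.01e-05) and the sodium calcium exchanger *Slc8a1* at -1.17 (adjusted p = 0.0459), against *Slc4a7* at 1.10 (adjusted p = 0.000585). In the interaction 1 of the 16 was called, beside 0.286% of all genes. The median of this list was 0.222 in cKO MTAL, 0.0521 in cKO CTAL and -0.106 between the WT segments.

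The genes whose levels followed each pump gene most closely over the 18 pools were listed by Spearman's rho of log2(CPM + 1) over 12585 other genes (12586 for *Fxyd1*), as a description that includes the differences between the groups. For *Atp1b2* they included *Hdac6* (0.889) and *Pgm3* (0.882). For *Fxyd2* they were *Slc8b1* (0.922), *Aldoc* (0.909) and *Ptgds* (0.909). For *Atp1b3* they were *Eno1* (0.889), *Pfkl* (0.868) and *Car2* (0.86), and for *Atp1b1*, which varied little, *Sec63* (0.785), *Nars* (0.775) and *Crb2* (0.763). The low *Fxyd5* was followed by *Aven* (0.86), *Eri1* (0.847) and *Zfp784* (0.839), and the few reads of *Fxyd1* by *Ubr1* (0.806), *Spef1* (0.753) and *Elp2* (0.75).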

How the data were processed

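The authors trimmed the reads (fastp in the study's methods, Trimmomatic in the submitters' processing notes, which also name FastQC and Picard) and mapped them to mm10 with DRAGEN. Reads were quantified by gene against GENCODE. They deposited estimated counts, not normalized, and TPM, corrected for length. Whether the counting used strand is not given in the sources used here, nor how shared reads were treated. The estimated counts had decimals in 6.26% to 9.53% of genes per pool and were rounded to whole numbers, where whole counts had been assumed in the plan.

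A gene was kept when it reached 3 CPM in 5 or more pools, or in 3 or more when one group was cKO MTAL. Each pair of groups was fitted alone with edgeR 4.0.16 (R 4.3.3), using TMM factors (0.936 to 1.08) and its quasi-likelihood F test. P-values were adjusted over all genes (Benjamini-Hochberg). Genes at an adjusted p under 0.05 were called. Intervals are 95%, from the SE. The fits were tested on simulated data with 200 changed genes. Levels are CPM after TMM, as mean ± SD. DESeq2 (1.42.0) and limma (3.58.1, on log2(TPM + 1)) were alternatives. No pair of replicates differed by as little as sampling noise (chi-square per gene from 16.1 to 145). Named are the 6 genes, up to 5 called genes of the lists per comparison by size, the 3 genes closest to each member, and markers. Members and lists were chosen with earlier results of these data known. The alpha subunit genes and some genes that the naming rule selects are not reported here. All 18 pools were used, and the pools the study excluded were not analysed here.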

Additional observations from a re-analysis of the deposited data

Results flagged for a closer look

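*Fxyd5* in WT CTAL replicate 3 stood at 6.03 CPM, apart from the other 4 WT CTAL pools, of which the highest had 4.09 CPM. The gap was 0.78 of the group's range. It was above Dixon's 95% critical value for 5 samples, which by its definition about 1 of 20 groups pass by chance, and the 6 genes were examined in the 3 groups of 5 pools. Without this pool the log2 difference of cKO CTAL from WT CTAL was 0.0469 in place of -0.0961, and neither was called by edgeR.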

How the results depend on the processing

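No paired analysis was possible because the groups share no replicate numbers. The results rest on 3 to 5 pools a group, on 3 for cKO MTAL, and *Fxyd5* and *Fxyd1* are limited by depth. The calls of *Atp1b2* in CTAL and of *Fxyd2* between the WT segments were kept under all 12 and 11 alternatives other than leaving out single pools. Log2 fold changes ran from 1.17 to 1.33 and from 0.91 to 1.02. The 12 include leaving out the pools with *Xist*, a setting added after the data were seen. In cKO MTAL against WT MTAL the number of the 5 tested genes called was 1, and 2 with edgeR's likelihood ratio test, both DESeq2 tests, total counts or no filter on low counts, 3 with one fit of all pools, 0 with limma on either TPM scale, and 1 to 2 with each pool left out. The added calls were *Atp1b2* and, in one fit of all pools, *Fxyd5*. In cKO CTAL it was 1, and 2 with edgeR's likelihood ratio test, both DESeq2 tests or WT CTAL replicate 1 as cKO, and 1 to 2 with each pool left out. In cKO MTAL against cKO CTAL it was 1, 0 with limma on either scale, and 0 to 2 with each pool left out, and in the interaction it was 0, and 0 to 1. The causes were not tested. The mean share of *Atp1b2* in cKO CTAL was 0.476% with CPM in place of TPM, which is not corrected for length.

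Directions turned only for differences that were not called. With limma on log2(TPM + 1) and log2(TPM + 0.1), *Atp1b3* was at 0.128 and 0.129 in cKO MTAL, 0.0748 and 0.0755 in cKO CTAL and 0.0530 and 0.0531 in the interaction, *Fxyd5* at 0.187 and 0.206 in cKO CTAL, and between the WT segments *Atp1b1* at -0.0638 on both and *Atp1b2* at 0.0661 and 0.0738. As log2 ratios of mean TPM these were 0.136 and 0.0637 for *Atp1b3* in cKO MTAL and cKO CTAL, 0.219 for *Fxyd5*, -0.0629 for *Atp1b1* and 0.0946 for *Atp1b2*. Without a filter *Atp1b1* was at -0.0131 in cKO MTAL and -0.0170 in the interaction, and without the pools with *Xist* at -0.0355 in cKO CTAL. In the interaction *Atp1b3* was at 0.00524 with DESeq2's Wald test, 0.00533 with median-of-ratios factors, 0.0248 with total counts and 0.0284 with a term for *Xist*. With each pool left out, *Atp1b3* ranged from -0.192 to 0.0426 in cKO MTAL and from -0.114 to 0.110 in the interaction, *Fxyd5* from -0.165 to 0.0469 and *Atp1b1* from -0.0313 to 0.0333 in cKO CTAL. Leaving out the pools with *Xist*, a setting chosen after seeing the data, was not possible for WT MTAL, which keeps 1 pool.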

Other observations

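The other relatives of the beta and FXYD genes were low in these pools. *Atp1b4*, a beta-like gene of muscle, had no reads in WT MTAL and at most 0.118 CPM elsewhere. *Fxyd4*, the regulator of collecting duct principal cells, had a median of 3.20 CPM in WT CTAL (1.79 to 5.37), 3.01 CPM in cKO CTAL (1.0025 to 5.46), 1.64 CPM in WT MTAL (1.33 to 8.66) and 1.78 CPM in cKO MTAL (1.62 to 12.8). In cKO MTAL 1 of the 3 pools was thus far above the other two. *Fxyd6* averaged 3.31, 2.79, 3.42 and 3.88 CPM in the same order. In no comparison was *Fxyd4* or *Fxyd6* called when tested by edgeR, with 0 at an unadjusted p under 0.05 and 0 by DESeq2 or limma.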
